A study of Mus musculus with 10 samples.

Results

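The genes described here are 10 Fgf ligand genes of the mouse, Fgf3, Fgf4, Fgf5, Fgf8, Fgf9, Fgf10, Fgf11, Fgf15, Fgf17 and Fgf20. They are 10 of the 22367 protein-coding genes of the mm9 assembly in the GENCODE vM1 annotation. They were chosen by name, with earlier results of these data known, so their contrasts with all genes are descriptive. A ChIP-seq site was assigned to a gene when it shared at least 1 bp with the gene body extended by 5 kb on each side. The data are 4 lists of sites from mouse embryonic stem cells (ESCs), obtained by ChIP-seq, which sequences the DNA pulled down with an antibody. The Suz12 list (8876 sites) gives where Suz12, a core subunit of Polycomb repressive complex 2 (PRC2), was bound in cells expressing scramble shRNA. The Suz12-depleted list (5722 sites) gives those Suz12 sites at which binding was decreased upon Pcl3 knockdown. The study also found lower Suz12 mRNA and protein upon knockdown, and proposes that this may account for part of the decreased binding. Its part at the Fgf genes was not tested. The Pcl3 list (5242 sites) gives binding of Pcl3, a Polycomb-like accessory protein of PRC2. The H3K27me3-depleted list (678 sites) gives where trimethylation of histone H3 lysine 27, the mark that PRC2 deposits, was decreased upon knockdown.

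The Suz12 and H3K27me3 libraries came from XG122 ESCs of genotype Suz12 Suz12TAP/+, in which 1 Suz12 allele carries a tandem affinity purification (TAP) tag at the endogenous locus. These cells expressed either Pcl3 shRNA or scramble shRNA, and each had 1 Suz12-TAP library (FlagM2 antibody), 1 H3K27me3 library and 1 input library. The Pcl3 list came from E14 ESCs that carried both Pcl3-TAP and an shRNA against wild-type Pcl3, number 6 in 1 sample and number 7 in the other, with 1 FlagM2 library and 1 input library each. Pcl3-TAP was thus expressed from a transgene in a different ESC line from the one used for Suz12. In all there were 10 libraries, 6 ChIP and 4 input. Each condition behind the Suz12 and H3K27me3 lists had 1 library, so no difference has a replicate check and no test between conditions was possible. The lists hold no expression values, so the ESC label could not be checked against marker genes. The strength of a site is given as −log10 of its deposited p-value, which measures how surely the ChIP signal exceeded its control. The strength grows with sequencing depth and with the width of the site, and the depth of the libraries is unknown from these lists.

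Fibroblast growth factors (FGFs) are signaling proteins that mostly act by binding receptor tyrosine kinases together with heparan sulfate or Klotho cofactors, which activates the Ras and MAP kinase cascade. In ESCs and the early embryo, Fgf4 is produced by pluripotent cells and prompts them to leave self-renewal, whereas Fgf5 is a classical marker of the primed epiblast that follows. Most other family members are switched on later, in signaling centers of the limb, brain, heart, kidney and gut, and PRC2 is known for occupying the promoters of such developmental genes in ESCs.

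Suz12 was bound at 9 of the 10 Fgf genes, all except Fgf17, and binding was decreased upon Pcl3 knockdown at 8 of them, all except Fgf17 and Fgf4. Pcl3 was bound at the same 8 genes. Among all protein-coding genes, 28.8% had a Suz12 site, 20.7% had one in the depleted list and 14.7% had a Pcl3 site. None of the 10 genes had an H3K27me3-depleted site, against a background of 3.13% of all genes. The window searched was no larger at the Fgf genes than in general, their median length being 6236 bp against 15427 bp for all genes.

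The 3 genes Fgf3, Fgf4 and Fgf15 lie next to each other on chromosome 7 and gave different results, so the bases before their starts are shown first. They are followed by those of Fgf5, whose upstream bases held the most CpG dinucleotides of those shown, and of Fgf17, which had no site. Each is the 300 bases before the annotated start of a protein-coding transcript, in mm9, 5′ to 3′ on the strand of the gene, with CpG dinucleotides in capitals.
Fgf3 (chr7:152023688-152023987, plus strand): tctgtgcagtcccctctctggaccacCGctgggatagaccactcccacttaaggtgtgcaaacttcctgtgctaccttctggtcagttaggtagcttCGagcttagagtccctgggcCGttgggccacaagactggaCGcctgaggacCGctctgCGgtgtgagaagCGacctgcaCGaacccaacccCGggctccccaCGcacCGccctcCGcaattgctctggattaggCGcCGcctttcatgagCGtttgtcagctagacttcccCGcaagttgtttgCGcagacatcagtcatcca
Fgf4 (chr7:152046991-152047290, plus strand): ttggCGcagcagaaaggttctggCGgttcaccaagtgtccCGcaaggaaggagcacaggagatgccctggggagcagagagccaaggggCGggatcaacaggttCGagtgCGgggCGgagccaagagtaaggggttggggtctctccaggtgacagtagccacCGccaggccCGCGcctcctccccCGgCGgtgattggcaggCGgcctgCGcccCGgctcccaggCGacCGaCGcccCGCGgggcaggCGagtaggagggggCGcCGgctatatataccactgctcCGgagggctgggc
Fgf15 (chr7:152082137-152082436, plus strand): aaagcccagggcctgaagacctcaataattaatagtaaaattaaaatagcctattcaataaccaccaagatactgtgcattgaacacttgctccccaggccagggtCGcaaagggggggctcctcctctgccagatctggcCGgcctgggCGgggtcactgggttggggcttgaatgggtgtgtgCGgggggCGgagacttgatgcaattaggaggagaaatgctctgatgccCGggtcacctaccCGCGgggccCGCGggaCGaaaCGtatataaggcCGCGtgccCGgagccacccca
Fgf5 (chr5:98682903-98683202, plus strand): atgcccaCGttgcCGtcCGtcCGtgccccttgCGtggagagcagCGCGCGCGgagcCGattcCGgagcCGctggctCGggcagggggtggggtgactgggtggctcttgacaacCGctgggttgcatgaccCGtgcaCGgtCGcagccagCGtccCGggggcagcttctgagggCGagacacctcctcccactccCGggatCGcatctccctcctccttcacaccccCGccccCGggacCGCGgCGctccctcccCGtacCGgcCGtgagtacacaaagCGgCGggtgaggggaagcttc
Fgf17 (chr14:71042076-71042375, minus strand): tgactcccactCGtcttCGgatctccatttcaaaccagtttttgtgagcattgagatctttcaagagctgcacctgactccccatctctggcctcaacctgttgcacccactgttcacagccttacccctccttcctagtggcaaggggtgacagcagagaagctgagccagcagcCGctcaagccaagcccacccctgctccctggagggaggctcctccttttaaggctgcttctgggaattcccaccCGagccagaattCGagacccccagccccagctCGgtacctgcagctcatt
The sequences before Fgf3, Fgf4, Fgf15 and Fgf5 held 17, 24, 15 and 32 CpG, respectively, and the sequence before Fgf17 held 6. Over the 46015 starts of protein-coding transcripts the median was 10, and it was 21 at the 8027 starts inside Suz12 sites and 8 at the others. Over the 20 such starts of the 10 Fgf genes the median was 19. Thus Fgf4, which kept its Suz12 site off the depleted list, had more CpG before its start than its neighbours Fgf3 and Fgf15, where Suz12 binding was decreased. Fgf5, with 32, and the starts of Fgf8, with 33 to 35, had more than Fgf4, and Suz12 binding over them was decreased too. Genes with decreased Suz12 thus lay both below and above Fgf4 in this count. The hexamer GCGCGC, which reads the same on both strands, occurred in the printed bases of Fgf5 and in none of the other 4. It occurred before 15.5% of all starts, 30.1% of starts inside Suz12 sites and 34.0% of the 3414 starts inside Pcl3 sites, and before 4 of the 20 Fgf starts. The sequence before Fgf15 also lies within an exon of Gm17685, a non-coding RNA gene annotated there.

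At each of the 9 bound genes, a Suz12 site covered the start of a protein-coding transcript, which was so for 71.4% of all genes with a Suz12 site. A Pcl3 site covered a start at 6 of these 9 genes, Fgf3, Fgf5, Fgf8, Fgf9, Fgf11 and Fgf15, against 41.9% of all genes with Suz12 over a start. In all the 9 genes had 13 Suz12 sites and 8 of them had 15 Pcl3 sites. The map of sites around the starts shows that binding reached from the promoter into the first part of the gene, and that it was broadest at Fgf9 and Fgf11.

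**Figure D1:**
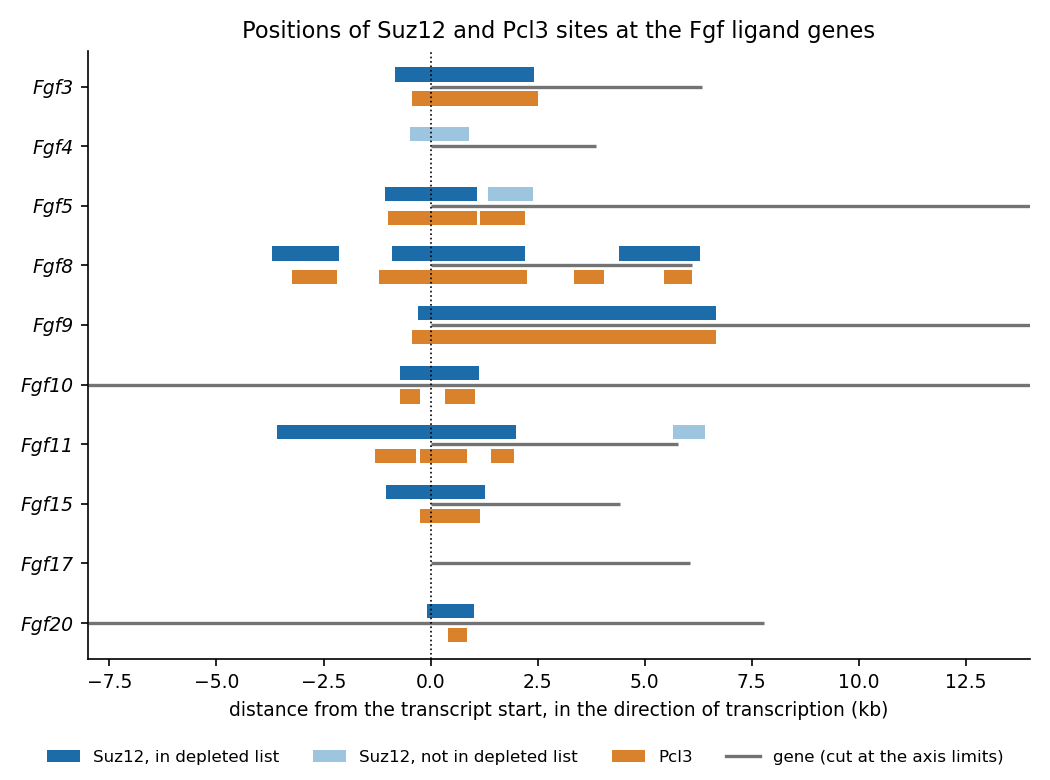
Positions of the 13 Suz12 sites (upper bars, dark where in the Suz12-depleted list and light where not) and the 15 Pcl3 sites (lower bars) at the 10 Fgf genes, in kb from the gene start, or from the start of Fgf10-001 and of Fgf20-001 for those genes, in the direction of transcription. Suz12 bars cross the dotted start line at 9 genes, no bar is drawn for Fgf17, and Fgf4 has a Suz12 bar only.

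Fgf3, which is needed for inner ear and tail development, had a strong and wide site. Its Suz12 site at chr7:152023151-152026400 is 3250 bp wide and spans both annotated coding transcript starts. The p-value was 1.29e-298, a strength above that of 94.8% of all Suz12 sites (ties counted at their mean rank). A Pcl3 site with a p-value of 9.76e-161 covered 87.7% of it, and the site was in the Suz12-depleted list.

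Fgf4 lies 23303 bp further along the chromosome, measured from start to start. Its only Suz12 site, at chr7:152046801-152048200, is 1400 bp wide and had a p-value of 6.96e-29, near the middle of the list at percentile 51.8. It covered the start, but it was not in the depleted list, and no Pcl3 site shared bases with it. The nearest Pcl3 site was 20791 bp and the nearest Suz12-depleted site 20891 bp from the gene. With 8.14 CpG per 100 bp over its whole width, the Fgf4 site was the most CpG-dense of the 13, at percentile 84.1 of all Suz12 sites. This order depends on the width of the sites. In the 500 bp around the site center, Fgf4 had 11.4 CpG per 100 bp and the wider Fgf3 site had 12.

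Fgf15, an endocrine FGF that signals from the ileum to the liver in the adult and is expressed in the embryonic brain, is the third gene of this cluster. Its Suz12 site at chr7:152081401-152083700 covered the start with a p-value of 1.01e-133, and was in the depleted list. A Pcl3 site with a p-value of 5.48e-34 covered 60.9% of it. The gaps between the Fgf3, Fgf4 and Fgf15 sites were 20400 bp and 33200 bp. Over the 58449 bp between the Fgf3 and Fgf15 starts, both outer genes were thus Pcl3-bound and depleted of Suz12 upon Pcl3 knockdown, and the gene between them was neither.

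Fgf5 had a pair of Suz12 sites on chromosome 5. The first, at chr5:98682151-98684300, covered the start with a p-value of 1.88e-175, was in the depleted list and was covered over 97.7% of its length by a Pcl3 site (p-value 1.39e-103). The second, at chr5:98684551-98685600 in an intron, was weaker, with a p-value of 4.65e-25. It was the only one of the 13 that shared bases with a Pcl3 site (p-value 2.35e-24, covering 81.0%) and was not in the depleted list. Among the 500 Suz12 sites nearest to it in strength, 5.40% had that combination. The 2 sites lie close together, with centers 22 and 1872 bp from the start. When a site was counted as depleted if the center of a depleted site lay within 2 kb, the second site counted as depleted too. The study used that distance for overlapping sites. The second site was also the poorest in CpG of the 13 over its whole width, with 2.29 per 100 bp, at percentile 4.88. In the 500 bp around the site center it had 2.6 per 100 bp, and the Fgf9 site had 2.4. Of the Fgf genes described here, only Fgf5 was listed by the study among the genes whose array expression differed between Pcl3 shRNA and scramble ESCs. The listed direction of Fgf5 was higher upon Pcl3 knockdown. Fgf5 was not in the second array list, from ESCs pre-plated to remove differentiated cells, and neither was any other of these Fgf genes.

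Fgf8, a ligand of limb, heart and midbrain signaling centers, had 3 Suz12 sites, all in the depleted list. The middle site, at chr19:45815201-45818300, covered all 5 annotated coding starts. Its p-value of 6.36e-308 was the smallest above 0 in the Suz12 list, and a Pcl3 site with a p-value of 1.28e-163 covered 100% of it. The upstream site (chr19:45819551-45821100) had a p-value of 2.78e-36 and the site over the end of the gene (chr19:45811101-45813000) one of 4.26e-72. Pcl3 sites covered 67.7% and 34.2% of these, with p-values of 2.19e-21 and 1.87e-11. A further Pcl3 site in an intron, with a p-value of 2.63e-12, was the only one of the 15 that shared no base with a Suz12 site, and it lay 350 bp and 1150 bp from the Suz12 sites on either side of it. Fgf17, of the same subfamily as Fgf8, had no site of any list. The nearest Suz12 site was 57862 bp away from Fgf17 and the nearest Pcl3 site 16776 bp away.

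Fgf9, which acts in lung mesenchyme and in testis formation, had the widest site. Its Suz12 site at chr14:58689101-58696050 is 6950 bp wide and covered all 4 coding starts, and its p-value was too small for the number format and was deposited as 0, as at 435 Suz12 sites in all. A Pcl3 site of 7100 bp, also with a p-value of 0, covered 100% of it. Fgf20, of the same subfamily and known for inner ear and kidney development, had the weakest Pcl3 site of the 15. Its Suz12 site at chr8:41371301-41372400 covered the start of transcript Fgf20-001 with a p-value of 1.83e-44, and the Pcl3 site, with a p-value of 1.20e-08, covered 40.9% of it. That Pcl3 site lay 407 to 856 bp downstream of the start without covering it. The start of the longer transcript Fgf20-002 was outside every site.

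Fgf10, which drives lung and limb budding, had 1 Suz12 site, at chr13:119502801-119504650, over the start of transcript Fgf10-001. Its p-value was 3.88e-49 and it was in the depleted list. Pcl3 bound on both sides of the start but not over it, from -705 to -256 bp (p-value 7.08e-10) and from 345 to 1044 bp (p-value 1.08e-12) relative to the start. Together the 2 Pcl3 sites covered 62.2% of the Suz12 site.

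Fgf11 encodes an FGF homologous factor, a protein that stays inside the cell and binds sodium channels. Its stronger Suz12 site, at chr11:69613351-69618950, is 5600 bp wide, had a p-value of 1.85e-288 and was in the depleted list. It also reaches toward Tmem102, whose start is 3767 bp from that of Fgf11. Pcl3 binding there was split into 3 sites with p-values of 5.38e-30, 5.68e-20 and 2.62e-10, which covered 46.4% of the Suz12 site. A second Suz12 site past the end of Fgf11, at chr11:69608951-69609700, had a p-value of 8.28e-15, was not in the depleted list and had no Pcl3. Its center was nearest to the start of Chrnb1, a neighbouring gene.

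**Figure D2:**
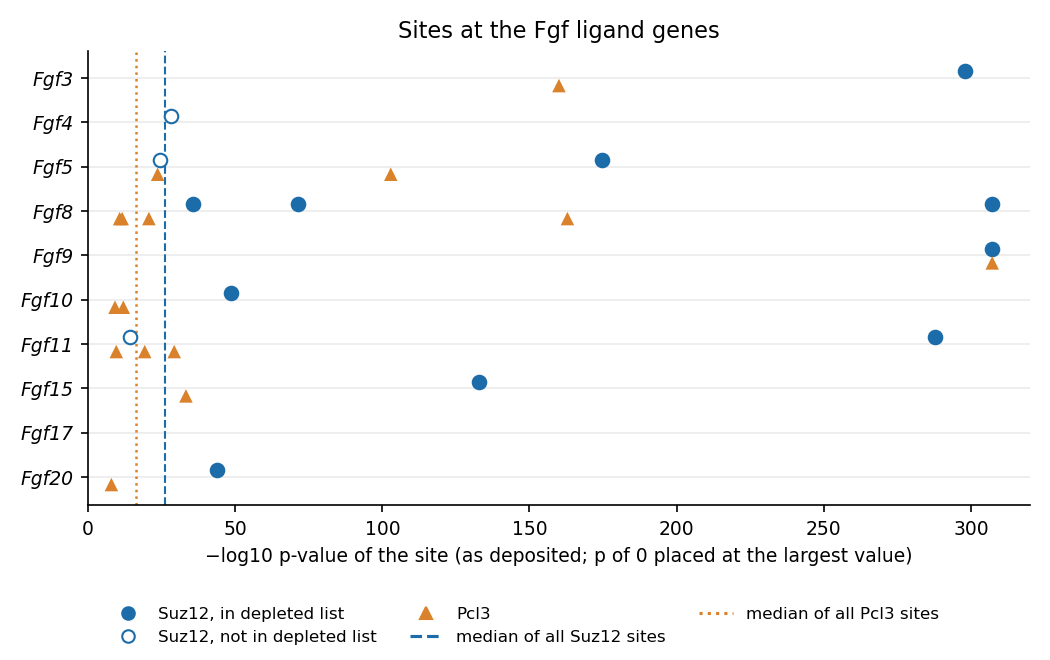
Strength (−log10 of the deposited p-value, horizontal axis) of every Suz12 site (circles, filled where in the Suz12-depleted list) and Pcl3 site (triangles) at each Fgf gene, with the medians over all Suz12 sites (26.2, dashed) and all Pcl3 sites (16.3, dotted). The 3 open circles, at Fgf4, Fgf5 and Fgf11, are the weakest 3 of the 13 Suz12 sites, and p-values of 0 are placed at the largest value.

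The Suz12 sites at the Fgf genes were stronger and wider than Suz12 sites in general. Their median strength was 71.4, with quartiles of 35.6 and 288, against a median of 26.2 over all 8876 sites. The strongest site of each bound gene had a median strength of 175 over the 9 Fgf genes and of 35.8 over the 6442 bound genes. The median width was 1900 bp against 1100 bp. Ordered by their strongest site, Fgf9, Fgf8, Fgf3, Fgf11, Fgf5, Fgf15, Fgf10, Fgf20 and Fgf4 ran from the strongest to the weakest. The p-value of Fgf9, deposited as 0, gives no size for its step above Fgf8, and without replicates no step in this order has an error. The Fgf sites were not denser in CpG than others, with a median of 4.88 per 100 bp against 5.41, and GCGCGC occurred in 6 of the 13 (46.2%) against 52.5% of all sites.

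Of the 13 Suz12 sites, 10 were in the depleted list, or 76.9% (95% Wilson interval 49.7% to 91.8%, counting error over sites only), against 64.5% of all Suz12 sites. With Pcl3, 11 of the 13 shared bases, or 84.6% (57.8% to 95.7%), against 44.3% of all. Both intervals take the sites as independent, although several lie at the same gene, so neither is a test against all sites. All 10 depleted sites had Pcl3, against 60.7% of all depleted sites. A further 2 sites had neither, as did 30.4% of all Suz12 sites, and 1 had Pcl3 without depletion, as did 5.15% of all. Counted by gene, 71.7% of all genes with a Suz12 site had a depleted one and 47.7% a Pcl3 site, against 8 of 9 Fgf genes for each. The combination of Suz12, depletion and Pcl3 without H3K27me3 depletion, found at these 8, was found at 2370 genes (10.6%). The combination of Fgf4, Suz12 alone, was found at 1593 genes, and that of Fgf17, no site of any list, at 15680.

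Both shares rose with the strength of the Suz12 site over the whole list. Each Fgf site was therefore set beside the 500 Suz12 sites nearest to it in strength. For the main sites of Fgf8 and Fgf9 these were the 500 strongest. Strength and depletion both rest on the same scramble Suz12 library, so they are not independent. The study states that a change may be harder to detect at less significant sites, which was not tested here. Around the sites over the starts of Fgf3, Fgf5, Fgf8, Fgf9, Fgf11 and Fgf15, 100% of the neighbours in strength were in the depleted list and at least 95.6% shared bases with Pcl3. Depletion and Pcl3 binding at these 6 genes was therefore what nearly every site of their strength showed. At Fgf20 and Fgf10, 97.0% and 97.6% of such sites were depleted, and 50.2% and 58.0% had Pcl3. For the Fgf4 site, 84.4% of sites of like strength were depleted, 31.8% had Pcl3 and 11.4% had neither, as Fgf4 did. For the weak site past the end of Fgf11, 39.4% were depleted and 49.6% had neither. The intronic Fgf5 site was likewise outside the depleted list where 77.6% of sites of like strength were in it, and 28.0% of them had Pcl3 as it did. Among the strongest sites of the 9 bound genes, that of Fgf4 was the one outside the depleted list, which 15.6% of sites of its strength were.

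**Figure D3:**
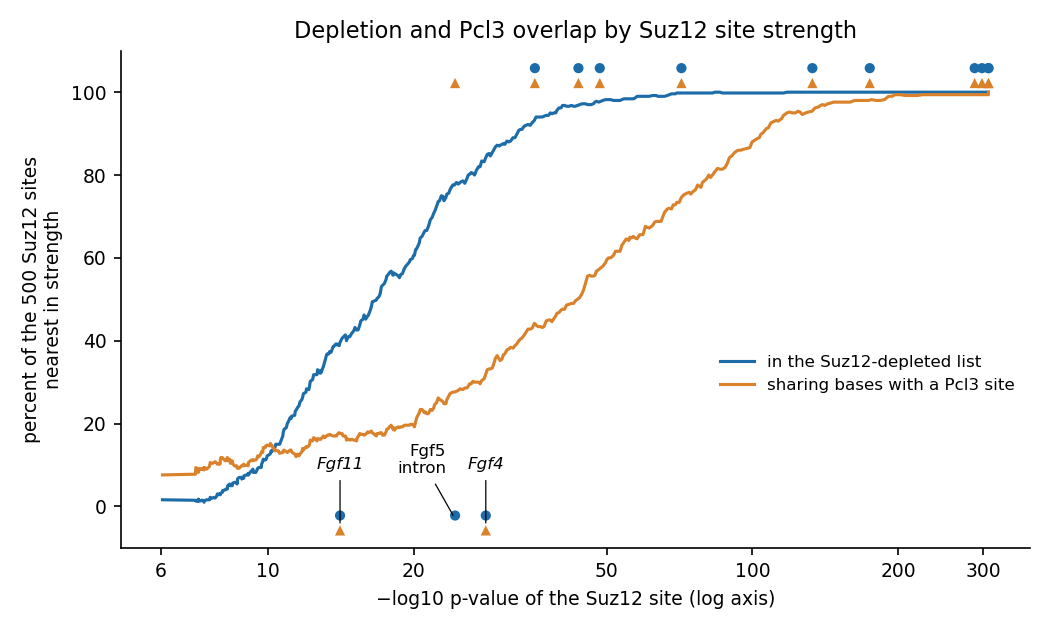
Percent of the 500 Suz12 sites nearest in strength (fewer at the ends of the range) that were in the Suz12-depleted list or shared bases with a Pcl3 site, against the strength of the Suz12 site on a log axis. Circles (depletion) and triangles (Pcl3) above and below the curves mark the 13 Fgf sites, above where the site had the property and below where it did not. Fgf4 lies below where the depletion curve is at 84.4%.

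Pcl3 binding also differed in strength between the Fgf genes. The strongest Pcl3 site of each of the 8 bound genes ran from a strength of 7.92 at Fgf20 to 163 at Fgf8, with Fgf9 placed at the largest value of the list. Each was set beside Pcl3-bound sites of like Suz12 strength. The strongest Pcl3 site at the main Suz12 site of Fgf5 was above 78.4% of them, at Fgf3 above 54.7%, at Fgf15 above 44.1%, at Fgf10 above 39.7% and at Fgf8 above 32.4%. That of Fgf9 was above 55.6%, and the rest were tied with it at the largest value. None was stronger, so the Fgf9 share cannot be ranked against those of the other genes. For Fgf8, as for Fgf9, the sites compared were among the 500 strongest of the Suz12 list. Those hold all 435 sites with a Suz12 p-value deposited as 0, which are stronger than Fgf8 by an unknown amount. The Fgf8 share is therefore not strictly like for like either. The lowest were Fgf20, above 12.4%, and Fgf11, above 2.62%. At Fgf11 the Suz12 site had a strength of 288, whereas the strongest of its 3 Pcl3 sites had one of 29.3, where the 497 Pcl3-bound sites of like Suz12 strength had a median of 130. Fgf3, with nearly the same Suz12 strength as Fgf11, had a Pcl3 strength of 160. That Fgf3 Pcl3 site was 2950 bp wide, whereas the Fgf11 ones were 550, 950 and 1100 bp, and strength grows with width. The sites of like Suz12 strength for both genes also reached the largest value, at which p-values of 0 were placed. Some of them are thus stronger by an unknown amount. Suz12 and Pcl3 were measured in different ESC lines. The part of that, or of width, in these differences in Pcl3 strength was not tested.

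**Figure D4:**
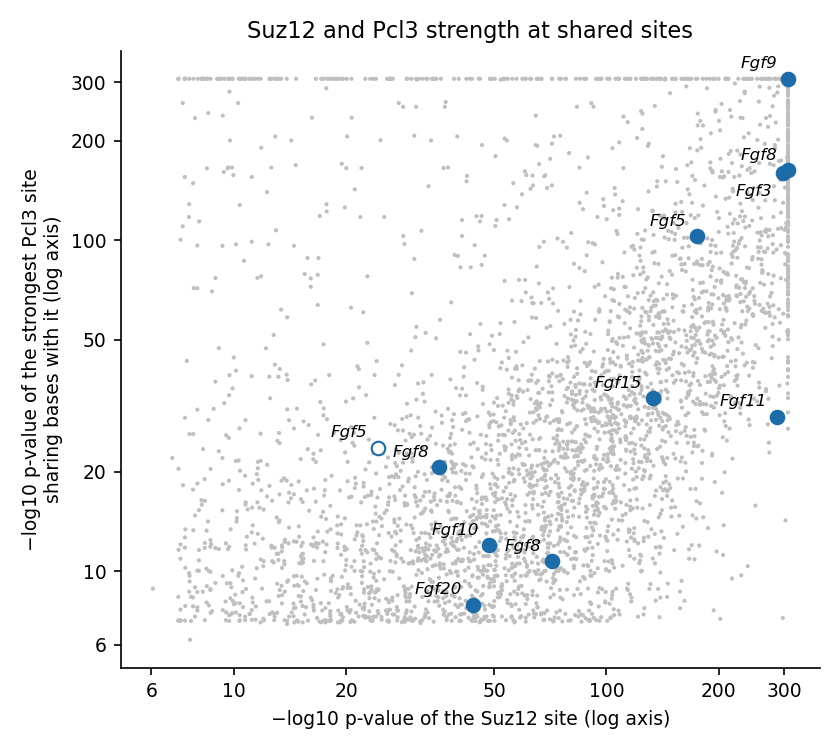
Strength of the strongest Pcl3 site (vertical) against that of the Suz12 site it shares bases with (horizontal), both −log10 of the deposited p-value on log axes, for all 3928 Suz12 sites with Pcl3 (grey) and the 11 at Fgf genes (circles, open where not in the depleted list). Fgf11 lies below most grey points of like Suz12 strength, and Fgf9 is at the largest value of both because its p-values were deposited as 0.

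Decreased H3K27me3 was listed at none of the 8 Fgf genes with decreased Suz12, whereas 14.1% of all genes with a Suz12-depleted site also had an H3K27me3-depleted one. With 8 genes, a count of 0 is close to what that background share gives. The share was not matched for Suz12 strength, however. The strongest site had a median strength of 175 at the bound Fgf genes, against 35.8 at all bound genes. The nearest H3K27me3-depleted site was 63653 bp from Fgf5, 114712 bp from Fgf17, and at least 359870 bp from each of the other 8. The lists do not hold the level of H3K27me3 itself, so whether the Fgf genes carried the mark is not known from these data.

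The other genes of the FGF pathway were taken from lists of ligands, receptors, cofactors, transducers, feedback inhibitors and target genes. Over all 22 Fgf ligands, including 12 not described above, 17 had a Suz12 site, 15 had depletion, 15 had Pcl3 and 1, Fgf14, had an H3K27me3-depleted site. Among the 12 others, 8 had Suz12, 7 depletion and 7 Pcl3. The strongest site of each of these 8 had a median strength of 86.1, against 175 at the bound genes described above. The strongest were at Fgf12 (p-value 1.23e-268), Fgf16 (8.68e-170) and Fgf18 (4.83e-132). By subfamily, named after 1 of its members, all 4 genes of the Fgf11 subfamily of intracellular factors and all 3 of the Fgf9 subfamily had Suz12, Pcl3 and depletion, against 12.8% of all genes. Fgf12, Fgf13 and Fgf14 are long genes of 285108, 505927 and 699221 bp, whose windows are large, but each of their Suz12 sites lay within 5 kb of a start of its own gene. All 3 endocrine genes had Suz12, against 28.8% of all genes, and 2 of them, Fgf15 and Fgf23, had Pcl3 and depletion. The only Suz12 site of Fgf23 was not within 5 kb of a start of that gene. That of Fgf21 (p-value 1.33e-11) was nearest to the start of Fut1, another gene. The Fgf8 subfamily had 2 of 3 genes in each of these lists, with Fgf17 the exception, and the Fgf7 subfamily had 2 of 4, Fgf3 and Fgf10. In the Fgf4 subfamily, 2 of 3 genes had Suz12 and 1, Fgf5, had Pcl3 and depletion.

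All 5 receptor genes had a Suz12 site, 4 a depleted one and 3 a Pcl3 site. The annotated span of Fgfr2 is 3009069 bp and takes in other genes, so of its 15 Suz12 sites only 2 lay within 5 kb of an Fgfr2 start, the stronger with a p-value of 8.95e-130, in the depleted list and with Pcl3. Fgfr3 had a site with a p-value of 0 and Fgfr1 one of 1.94e-61, and Fgfr4 was the receptor gene without depletion. Of the 4 cofactor genes, 2 had Suz12 and depletion and 1 Pcl3, and their sites had p-values of 9.74e-147 at Kl, which encodes Klotho, and 3.88e-44 at Fgfbp3. The 17 intracellular transducers of the signal were bound at about the background rate, 4 with Suz12, 3 with depletion, 2 with Pcl3 and 1 with decreased H3K27me3, and Gab1, an adaptor protein, had the strongest site (p-value 5.18e-134). Of the 8 feedback inhibitors found in the annotation, 5 had Suz12, 4 depletion and 1 Pcl3, with the strongest site at Spry1 (p-value 1.81e-33). Of the 4 target genes, 2 had Suz12 and depletion, with p-values of 4.33e-272 at Dusp4, a phosphatase of MAP kinases that also had Pcl3 and decreased H3K27me3, and 2.87e-33 at Etv4, a transcription factor.

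**Figure D5:**
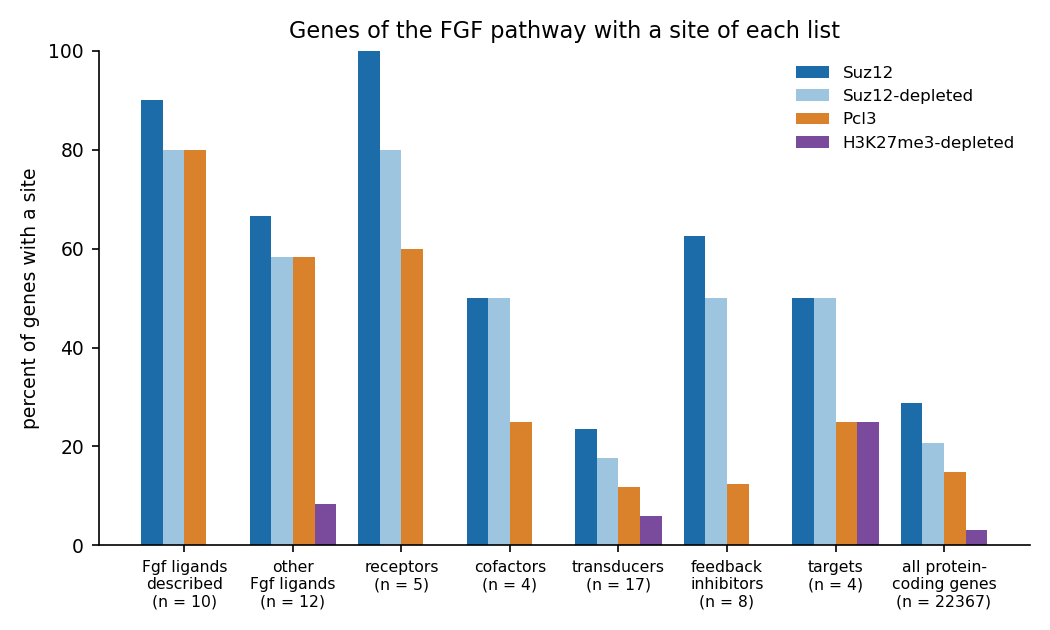
Percent of genes (vertical axis, from 0 to 100) with a site of each of the 4 lists, for the 10 Fgf genes, the other lists of the FGF pathway and all protein-coding genes, with the number of genes below each group. Ligands, receptors, cofactors and targets lie above all genes for Suz12, depletion and Pcl3, cofactors and targets with 4 genes each. Feedback inhibitors lie above all genes for Suz12 and depletion, and transducers lie near all genes.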

How the data were processed

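The data used are 4 lists of sites, in each of which the authors deposited a p-value for every site, with no read counts. They aligned 30-nt single-end reads to mm9 with bowtie (version not given in the sources used here), kept unique alignments, equalized background between paired samples, tested 400 bp windows with the Skellam distribution at a cutoff of 1e-07 and joined overlapping windows. How the 2 Pcl3-TAP libraries were combined is not stated. Since p-values in the Suz12-depleted list equal those of binding, depletion is known only as membership. Unique alignment leaves out repeats.

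Sites were overlapped with GENCODE vM1 genes extended by 5 kb on each side. A p-value of 0 was placed at the largest −log10 value of its list. Sites of like strength are the 500 Suz12 sites nearest in rank, or the 500 strongest for the Fgf8 and Fgf9 sites at the largest value. Wilson intervals at 95% cover counting error only. No test was run, since conditions have 1 library each. Coordinates are 1-based. All 10 Fgf genes were named, and up to 3 genes per pathway list by smallest Suz12 p-value. Fgf13, Fgf14, Fgf21, Fgf23 and Fgfr4 were named beyond that rule, after their values were seen. The members and lists were chosen with earlier results of these data known, and the bases before the starts and the genes printed with them, the subfamily grouping and the check of sites against a gene's own starts were chosen after the values were seen. Where GENCODE lists a symbol under more than 1 gene, the longest was used, and 1 listed feedback inhibitor was not found. The bases are from the mm9 genome. The direction of Fgf5 and the absence of the other Fgf genes from the 2 array lists are the only items from the paper's tables. The overlap functions were tested on simulated data against a search of all pairs. Scripts ran under Python 3.11.15 with pandas 2.3.3, numpy 2.4.6, pysam 0.24.0, scipy 1.17.1 and matplotlib 3.10.9.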

Additional observations from a re-analysis of the deposited data

How the results depend on the processing

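The 9 results on the Fgf genes were recomputed under other gene windows (0, 2 or 10 kb of flank, or 5 kb around the start), site centers in place of shared bases, p-value limits of 1e-10 and 1e-12 in every list, nearest transcript starts, merged sites and other overlap rules, giving 78 alternative values. Of these, 77 stayed within 1.5 times the reported count or median or within the Wilson interval of a share, which is wide with 13 sites. Genes with Pcl3 fell to 7 at a p-value limit of 1e-10, without Fgf20, and to 6 at 1e-12, without Fgf20 and Fgf10. The share of the 13 Suz12 sites with Pcl3 fell from 84.6% to 76.9% at 1e-10 and to 61.5% at 1e-12. With 5 kb around the outermost gene start only, 7 genes had Suz12, 6 depletion and 6 Pcl3, Fgf10 and Fgf20 being lost, and the median strength of the Suz12 sites moved from 71.4 to 154. With 5 kb around any coding transcript start, an alternative added after seeing the data, the counts were again 9, 8 and 8. No H3K27me3-depleted site was assigned under any of these. No paired analysis was possible because the lists hold no values per sample and no test was run. The lists give no depth per library, and the read numbers the study gives were not analysed here, so a site missing from a list shows only that it did not pass the authors' cutoff.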
